A study of Mus musculus with 15 samples.

Results

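The genes described here are the 475 genes of mouse chromosome 19 that passed a limit on low signal in a set of 15 expression arrays of choroid plexus and its tumours. RefSeq (GRCm38) placed 720 of the 22180 measured genes on this chromosome, and the 475 were those whose probe set exceeded the array's overall median in 5 or more of the 15 arrays. The other 245 stayed below that limit and are not among the members. The chromosome was selected on its log2 differences between carcinoma and normal tissue, so the carcinoma values below are a description and carry no test. Of the 475 members, 449 are protein-coding genes, 18 are long non-coding RNA genes and the rest are small RNA genes or pseudogenes. The limit was passed in all 15 arrays by 404 members, only through the normal arrays by 2, only through the papillomas by 1 and only through the carcinomas by 1. Of these, the members named below are Cfap43 (normal), Fas (papilloma) and Fam111a (carcinoma), which had to differ between groups and are given with values and no test. The files hold no detection call, so where a group lay at or under the array median no fold is given.

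The choroid plexus is the epithelium of the brain ventricles that secretes cerebrospinal fluid. Per the labels, the 5 normal samples came from Myc/Myc; p53fl/fl mice with no Cre, the 5 papillomas from Atoh1-Cre; Myc/Myc mice and the 5 carcinomas from Atoh1-Cre; Myc/Myc; p53fl/fl mice, all on a mixed C57Bl/6 and 129 background. All 3 genotypes therefore carry the Myc alleles, both tumour genotypes carry the Cre that Atoh1 sequence drives, and papillomas and carcinomas differ in the floxed p53 alleles. Tumours were taken when the mice became ill, ages are not given, and the series description gives each sample as tissue of a different mouse. Values are log2 signals per probe set after RMA, a procedure that brings all arrays to a common intensity distribution, so each value is relative to the rest of its own array.

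Every chromosome carries genes of many unrelated functions, and the RNA level of most genes follows the number of gene copies in a cell. Gain or loss of a whole chromosome, a common change in tumours that lack p53, therefore moves the RNA of many neighbouring genes by similar amounts, and a change in a regulatory programme moves genes by function wherever they lie. DNA copy number was not analysed here. In bulk tissue, fewer cells of a type and less RNA per cell cannot be told apart. Mouse chromosome 19 is the smallest mouse autosome. It holds genes of organic anion transport, of ribosome assembly and of mitosis, and growth regulators such as Men1, Sufu, Fas and Mxi1.

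Start regions show how different the members are that share this chromosome. The 100 bases before the RefSeq start (GRCm38.p6) are printed 5′ to 3′ for the 3 members whose values followed the chromosome median most closely, Ric1, Tnks2 and Cuedc2, and for the 3 members with the largest rise in carcinoma, Kif11, Acta2 and Gsto1. Capitals mark 3 motifs searched on both strands. The CCAAT box reads CCAAT, or on the other strand ATTGG. The core of the GC box reads GGGCGG, or on the other strand CCGCCC. The core of the cell-cycle element reads TTTGAA, or on the other strand TTCAAA.
Ric1 (chr19:29522182-29522281, plus strand): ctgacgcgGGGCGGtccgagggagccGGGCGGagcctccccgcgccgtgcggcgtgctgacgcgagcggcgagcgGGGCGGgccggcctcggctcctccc
Tnks2 (chr19:36834132-36834231, plus strand): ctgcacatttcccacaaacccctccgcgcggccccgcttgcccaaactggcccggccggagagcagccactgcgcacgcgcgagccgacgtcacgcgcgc
Cuedc2 (chr19:46338661-46338760, minus strand): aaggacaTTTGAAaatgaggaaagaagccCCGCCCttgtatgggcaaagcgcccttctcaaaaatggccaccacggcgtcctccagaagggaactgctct
Kif11 (chr19:37376282-37376381, plus strand): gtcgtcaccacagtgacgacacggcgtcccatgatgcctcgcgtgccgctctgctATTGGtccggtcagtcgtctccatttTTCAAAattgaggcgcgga
Acta2 (chr19:34255374-34255473, minus strand): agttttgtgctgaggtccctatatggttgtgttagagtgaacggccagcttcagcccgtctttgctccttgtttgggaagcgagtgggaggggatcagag
Gsto1 (chr19:47854873-47854972, plus strand): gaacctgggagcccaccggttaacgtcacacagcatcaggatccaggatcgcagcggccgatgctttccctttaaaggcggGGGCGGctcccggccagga
Ric1 holds the GC box core, which Sp1 binds, at 25, 74 and 92 bases before its start. Kif11 holds a CCAAT box 45 bases before its start and the core of the cell-cycle element, through which mitotic genes are repressed in resting cells, 19 bases before it. Tnks2 and Acta2 hold none of the 3 motifs in these 100 bases. In windows of 300 bases (250 before to 50 after the start), the GC box core was found in 62.0% of 510 member windows and in 35.7% of all 32851 windows, which include genes not expressed here. The CCAAT box was found in 39.4% and 37.4%, and the cell-cycle core in 11.8% and 17.9%. These letters are a description of the sequence and not evidence of binding.

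CACGTG, the E-box that Myc binds with Max, was searched because every genotype carries Myc alleles. It was found in 8.04% of member windows and in 7.15% of all windows. Of 397 members in the promoter table, 38 held it (9.57%), against 1178 of 10398 other autosomal genes past the same limit (11.3%). The motif overlaps none of the 3 above. Of the 50 named members in that table, 5 held it, and these are printed with the E-box in capitals because their values are described below.
Aldh18a1 (chr19:40588490-40588549, minus strand): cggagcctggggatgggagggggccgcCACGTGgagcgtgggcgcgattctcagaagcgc
Sfxn2 (chr19:46573279-46573338, plus strand): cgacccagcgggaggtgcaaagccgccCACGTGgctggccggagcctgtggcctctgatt
Fas (chr19:34290522-34290581, plus strand): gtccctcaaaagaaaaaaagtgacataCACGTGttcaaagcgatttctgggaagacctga
Pola2 (chr19:5964395-5964454, minus strand): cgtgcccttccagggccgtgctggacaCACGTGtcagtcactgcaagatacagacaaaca
Slc16a12 (chr19:34747536-34747578, minus strand): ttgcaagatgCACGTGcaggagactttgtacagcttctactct
The E-box began 59 bases before the start in both Aldh18a1 and Sfxn2, 110 in Fas, 221 in Pola2 and 240 in Slc16a12. Among the 38 members with an E-box, 14 rose and 4 fell in papilloma (36.8% and 10.5%), with a median log2 difference of 0.20. The 14 include Fas, which passed the signal limit only through the papillomas. Among the 359 without one, 92 rose and 72 fell (25.6% and 20.1%), with a median of 0.02. Over all genes tested 17% rose and 16.3% fell, and the difference between the sets was not tested. In carcinoma the medians were -0.12 with and -0.17 without an E-box.

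The array medians of the deposited values lay between 6.79 and 6.90, and the highest values between 14.48 and 14.58. Ttr, the transthyretin gene that marks choroid plexus epithelium, read 14.42 to 14.58 in all 15 arrays. These values lay near the highest of the arrays, so Ttr can hardly show differences in the amount of epithelium. Each tumour array carried either Xist or Y-linked transcripts. Normal arrays 2 to 5 carried both, with Xist at 10.69 to 12.48, and normal array 1 read 6.35 for Xist and carried the Y-linked transcripts. A single mouse does not normally give both, so arrays 2 to 5 conflict with the description of 1 mouse per sample, and the normal spread behind each SE and p may not be a spread between single mice. Mature neuron markers (13 measured, 12 above the array median in all normal arrays) averaged 8.34 to 8.84 in normal tissue and 7.16 to 7.77 in carcinoma. They averaged 7.16, 9.40, 7.40, 8.62 and 7.38 in papillomas 1 to 5, so papillomas 2 and 4 stood apart. Of the T and B cell markers, 0 of 10 measured were above the median in all normal arrays. No marker gene is a member.

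The members as a whole were lower in carcinomas 1, 2 and 5, close to 0 in carcinoma 3 and above 0 in carcinoma 4. For each member the difference from the normal mean was taken and centred on the median of all autosomal genes in that array, and the median over the 475 members is the shift of the chromosome. It was -0.20 in carcinoma 1, -0.23 in carcinoma 2, -0.03 in carcinoma 3, 0.06 in carcinoma 4 and -0.41 in carcinoma 5. As a change in signal these are -12.7%, -14.7%, -1.95%, 4.57% and -24.8%. Papillomas gave 0.03, 0.02, 0.04, 0.0059 and 0.02, and the normal arrays lay between -0.0054 and 0.0083. Carcinomas 1, 2 and 5 were below every normal array and every papilloma, carcinoma 3 lay slightly below them, and carcinoma 4 lay above all of them. As a mean over members in place of the median, carcinoma 3 read 0.02. A shift down in carcinomas is thus a description of arrays 1, 2 and 5 and does not describe arrays 3 and 4.

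The mean shift was -0.16 ± 0.19 (SD, n = 5) in carcinoma, 0.02 ± 0.014 in papilloma and -0.0017 ± 0.0059 in normal tissue. The carcinoma SD is larger than its mean. Without carcinoma 5 the mean was -0.10, and with all 720 genes of the chromosome, dim ones included, it was -0.07. Measured from normal array 1 alone it was -0.16, and from the papilloma mean -0.21.

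**Figure D1:**
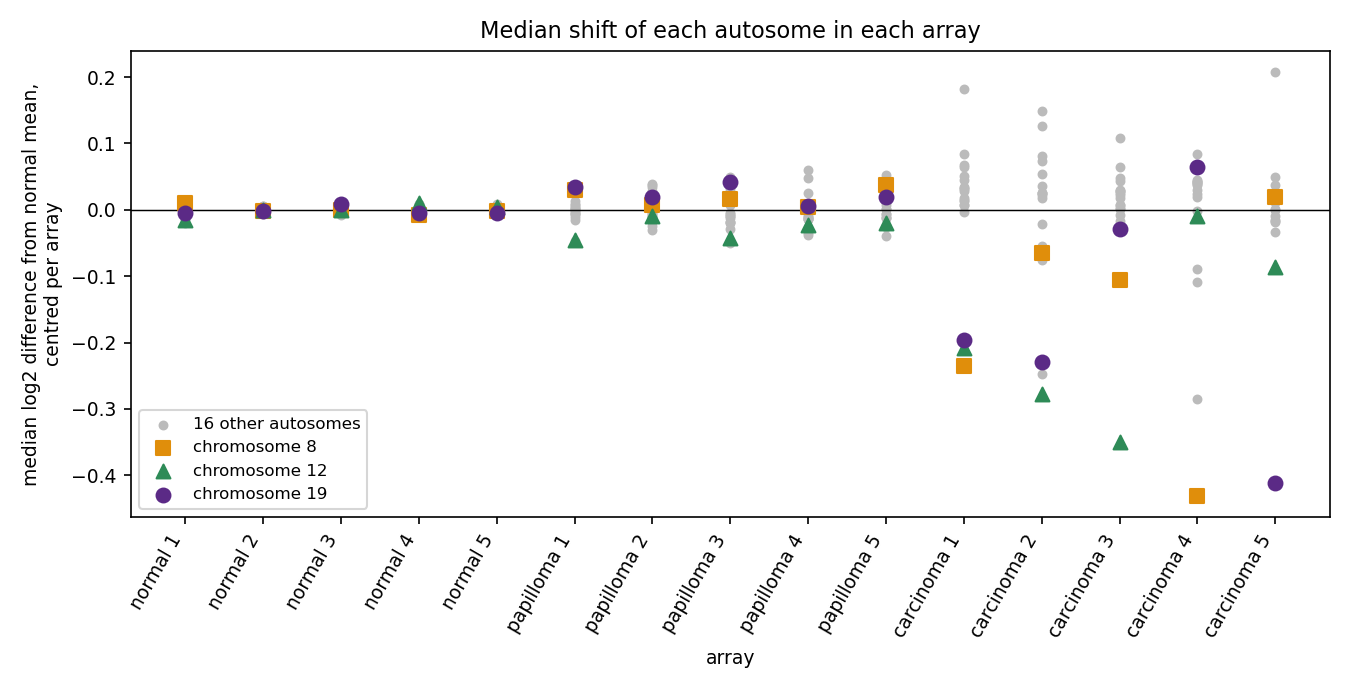
Median over genes of the centred log2 difference from the normal mean (vertical axis) for each autosome in each of the 15 arrays (horizontal axis), with chromosomes 8, 12 and 19 marked. Chromosome 19 lies at -0.20, -0.23 and -0.41 in carcinomas 1, 2 and 5, at -0.03 and 0.06 in carcinomas 3 and 4, and near 0 in normal and papilloma arrays.

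The share of members below 0 showed how widely the chromosome took part. It was 69.5% in carcinoma 1 (330 members), 65.7% in carcinoma 2 (312), 53.7% in carcinoma 3 (255), 42.5% in carcinoma 4 (202) and 76.2% in carcinoma 5 (362). Of the other autosomal genes, 49.1% to 50.3% were below 0 in the same arrays. In carcinoma 5 the upper quartile of the members was -0.0078, so the span between its quartiles lay wholly under 0, whereas in carcinoma 4 the quartiles were -0.26 and 0.39. Members varied more among the carcinomas than other genes did: the median SD was 0.29 for members and 0.20 for other autosomal genes. In papilloma these medians were 0.12 and 0.13, and in normal tissue 0.10 for both sets.

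**Figure D2:**
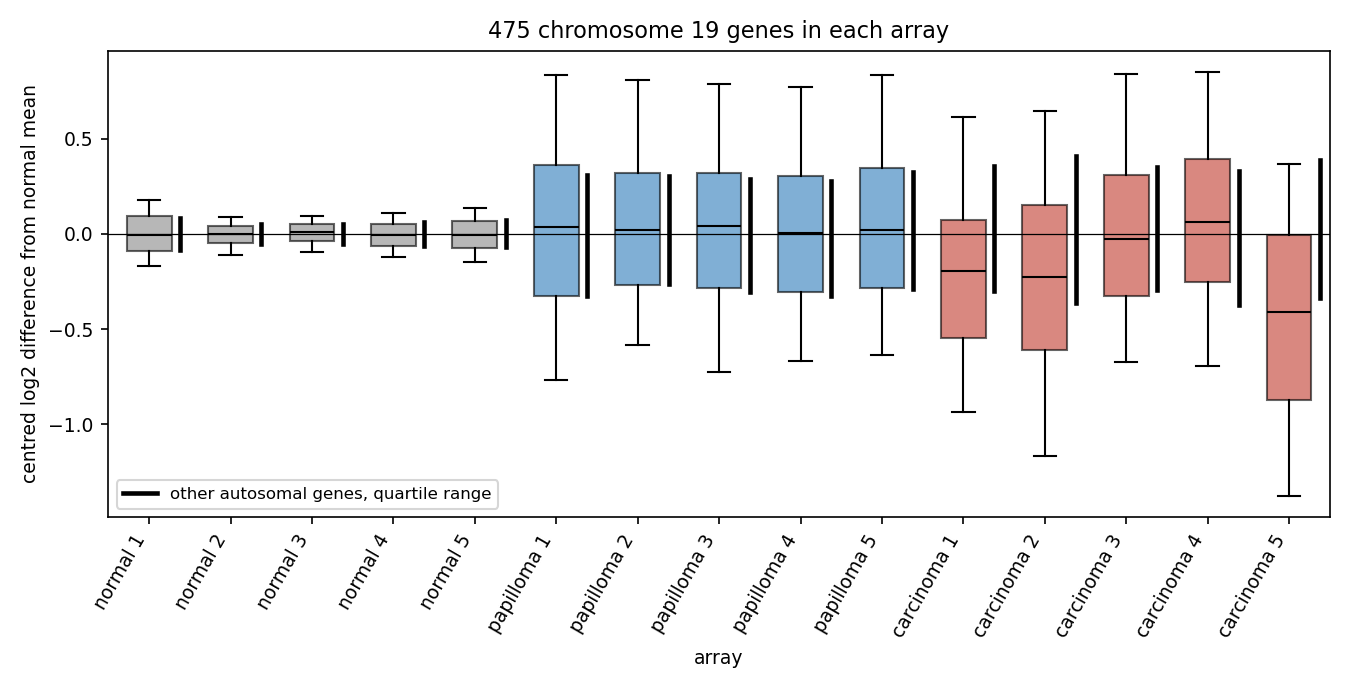
Centred log2 difference from the normal mean (vertical axis) of the 475 members in each array. Boxes span the quartiles with the median as a line, whiskers reach the 10th and 90th percentiles, and the dark bar beside each box spans the quartiles of the other autosomal genes. The boxes of carcinomas 1, 2 and 5 sit lower than the bars beside them, and that of carcinoma 4 sits higher.

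Chromosome 19 was not the only chromosome with a low median in carcinomas, and the set of low chromosomes differed from array to array. In carcinoma 1, chromosomes 8 (-0.24) and 12 (-0.21) were lower still, and in carcinoma 2, chromosomes 12 (-0.28) and 16 (-0.25) were. Carcinoma 3 had its lowest median on chromosome 12 (-0.35) and carcinoma 4 on chromosome 8 (-0.43). Carcinoma 5 had chromosome 19 as the lowest of all autosomes, with chromosome 12 next at -0.09. Among the 5 carcinomas, chromosome 19 was the lowest autosome in carcinoma 5, the third from the bottom in carcinomas 1, 2 and 3, and the 17th in carcinoma 4.

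The low values ran along the whole chromosome in carcinomas 1, 2 and 5. In gene order the members were divided into 8 blocks of 59 or 60 genes. All 8 block medians were below 0 in carcinoma 1 (-0.36 to -0.11), in carcinoma 2 (-0.49 to -0.06) and in carcinoma 5 (-0.70 to -0.20). Carcinoma 3 had 5 of 8 blocks below 0 and carcinoma 4 had 2 of 8. Medians over a running window of 31 genes gave the same picture: all 445 windows were below 0 in carcinoma 5, 427 in carcinoma 1, 426 in carcinoma 2, 285 in carcinoma 3 and 110 in carcinoma 4. No end of the chromosome was spared in carcinoma 5, whose first block (Ighmbp2 to Rab1b) was at -0.46 and last block (Ina to Csf2ra) at -0.20.

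Block 5, from Zfand5 to Lipa, had the lowest median of the 8 in all 10 tumour arrays. It was -0.36, -0.49, -0.14, -0.04 and -0.70 in carcinomas 1 to 5, and -0.12, -0.09, -0.15, -0.06 and -0.09 in papillomas 1 to 5. In normal arrays it lay between -0.06 and 0.04. Of the members described below, this stretch holds Asah2, Il33, Vldlr, Gldc, Smarca2 and Jak2, whose papilloma means were lower than normal. It also holds Gda, Rcl1, Prkg1, Acta2, Fas and, by a small difference, Ric1, whose papilloma means were higher. Papillomas thus had part of the same profile along the chromosome. Set against the papilloma mean in place of the normal mean, the carcinoma 5 blocks lay between -0.61 and -0.42 and the carcinoma 2 blocks between -0.38 and -0.14. Those of carcinoma 3 lay between -0.08 and 0.03, and those of carcinoma 4 between -0.04 and 0.06.

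**Figure D3:**
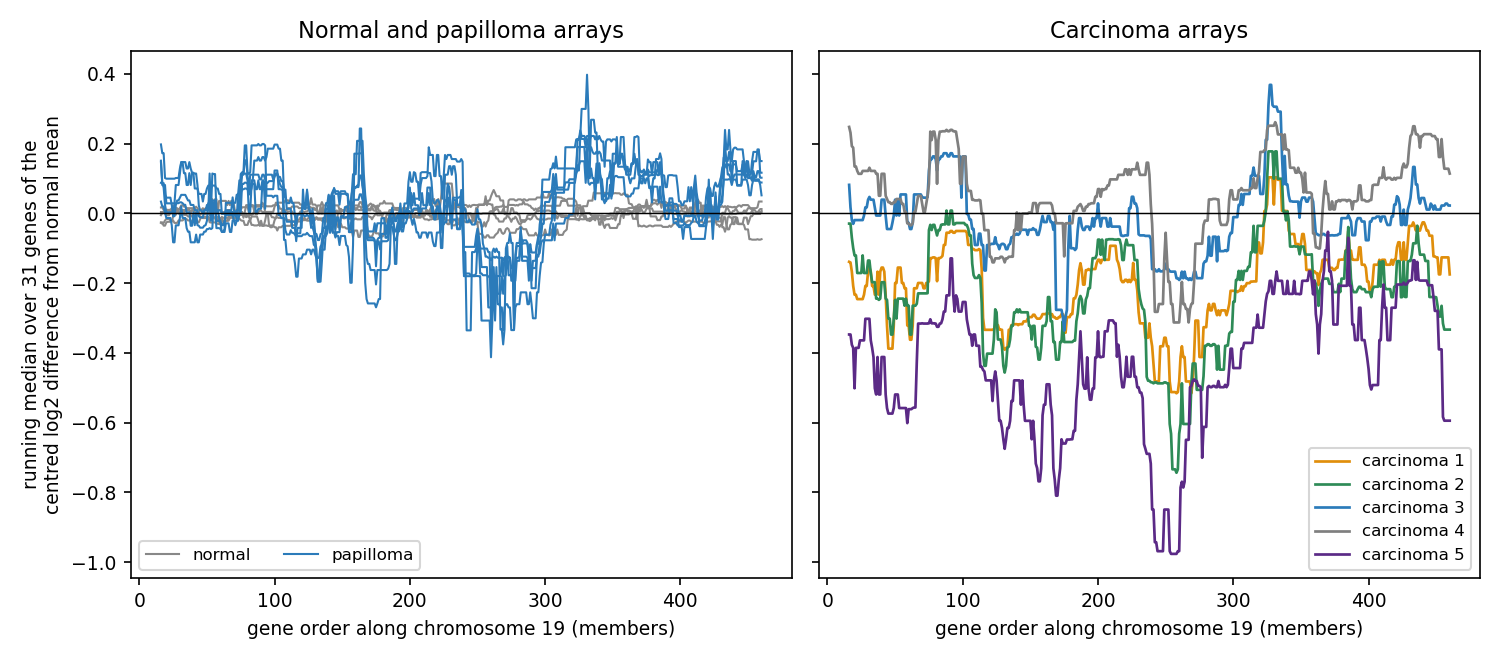
Running median over 31 members of the centred log2 difference from the normal mean (vertical axis), by gene order along chromosome 19 (horizontal axis), with normal and papilloma arrays on the left and each carcinoma on the right. The line of carcinoma 5 stays below 0 in all 445 windows, and the dip near the middle of the chromosome appears in papillomas as well.

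In carcinomas 1, 2 and 5 the shift was smallest in dim members. Members were split into 3 classes by their mean over all arrays. In carcinoma 5 the median was -0.17 in the 159 dim members, -0.54 in the 158 middle ones and -0.61 in the 158 bright ones. In carcinoma 2 it was -0.05, -0.32 and -0.30, and in carcinoma 1 it was -0.14, -0.19 and -0.21. Carcinoma 3 ran the other way, with -0.14, 0.06 and 0.02, and carcinoma 4 had 0.04, 0.10 and 0.06. At the limit itself, the 13 genes above the median in exactly 5 arrays had a mean carcinoma shift of -0.25, and the 8 genes in exactly 4 arrays, which are not members, had 0.03.

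Members that hardly differed in papilloma were shifted down too in carcinomas 1, 2 and 5. The carcinoma values chose the chromosome, so this is a description and adds no evidence. With a mean papilloma difference under 0.25 in size, a limit chosen after the values were seen, 214 members and 6229 other autosomal genes remained. Their median was -0.19 in carcinoma 1, -0.23 in carcinoma 2, -0.04 in carcinoma 3, 0.05 in carcinoma 4 and -0.47 in carcinoma 5. Of these 214 members, 81.8% were below 0 in carcinoma 1, 74.3% in carcinoma 2, 60.3% in carcinoma 3, 38.8% in carcinoma 4 and 84.6% in carcinoma 5. The other genes stood at 49.0% to 51.1% below 0 in these arrays.

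The members named next were chosen because their values lay closest to the chromosome median. Their likeness to the shift thus follows from the choice, and their values are a description that adds no evidence. Ric1, which with a partner protein activates the Golgi GTPase Rab6, came closest. It read 9.67, 9.71, 9.67, 9.67 and 9.74 in normal arrays 1 to 5, 9.84, 9.67, 9.77, 9.70 and 9.78 in papillomas 1 to 5 and 9.52, 9.35, 9.67, 9.74 and 9.22 in carcinomas 1 to 5. Carcinomas 1, 2 and 5 were below all normal arrays, carcinomas 3 and 4 lay within the normal range, and papillomas overlapped normal tissue. Its papilloma difference was 0.06 (SE 0.09, adjusted p = 0.686).

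Atl3, an atlastin that fuses tubules of the endoplasmic reticulum, read 10.92, 11.04, 11.05, 10.98 and 11.004 in normal tissue, 10.91, 10.96, 11.04, 11.03 and 10.98 in papilloma and 10.70, 10.60, 10.85, 11.01 and 10.35 in carcinoma. The lowest array was again carcinoma 5, and carcinoma 4 lay within the normal range. Papilloma and normal arrays overlapped, with a difference of -0.01 (SE 0.10, adjusted p = 0.944). Tnks2, the poly-ADP-ribose polymerase tankyrase 2, read 11.14, 11.22, 11.36, 11.43 and 10.91 in carcinoma against 11.35 ± 0.08 in normal tissue. Cuedc2, Fgfbp3 and Smndc1 were the other members nearest to the chromosome median, each lowest in carcinoma 5 and highest in carcinoma 4 among the carcinomas.

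In papilloma, whose values did not enter the choice of the chromosome, members rose and fell in near balance. Of the 475, 217 passed the test against normal tissue (limma, adjusted p under 0.05 over all 22180 genes), which is 45.7% against 33.2% of all genes tested. The members lie above a signal limit that all genes tested need not pass. There were 122 rises (25.7%, against 17% of all genes) and 95 falls (20%, against 16.3%). Papilloma and normal arrays did not overlap for 248 members, against 32.1% of all genes, 137 of them higher (background 16.3%) and 111 lower (background 15.8%). The median difference was 0.03 over members and 0.01 over all genes. In total 33 members (6.9%) were at least 2-fold higher and 27 (5.7%) at least 2-fold lower. The same shares over all genes were not counted, so these 2 counts have no background.

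In carcinoma the same counts are a description, since this contrast chose the chromosome. There were 247 members past the same threshold (background 37.9%), with 86 higher (background 18.7%) and 161 lower (background 19.2%), and 173 whose arrays did not overlap (background 29.9%), 58 of them higher (background 14.6%) and 115 lower (background 15.2%). Against papilloma, 115 members passed the threshold (background 11.4%), 14 higher (background 6.24%) and 101 lower (background 5.17%), and the arrays of 53 did not overlap (background 7.9%), 8 of them higher (background 4.52%) and 45 lower (background 3.39%). The medians were -0.17 against normal tissue and -0.20 against papilloma, where all genes stood at -0.02 and -0.03. Papilloma and carcinoma were compared with the same 5 normal arrays, so their differences from normal tissue are not independent. The count of 115 was 68 without carcinoma 2, 177 without carcinoma 4, 75 without papilloma 1, 71 without papilloma 3 and 71 without papilloma 5.

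The members were read by function in 10 lists, whose papilloma counts stand against 17% of all genes higher and 16.3% lower. Of 18 genes of cell division and DNA replication, 12 rose (66.7%) and 1 fell in papilloma, with a median difference of 0.56, and the carcinoma median was 0.46. Kif11 encodes the kinesin that pushes spindle poles apart. It read 6.81, 6.87, 6.73, 6.79 and 6.89 in normal tissue, 8.66, 8.23, 8.49, 8.60 and 8.76 in papilloma and 10.10, 10.75, 10.09, 10.81 and 8.76 in carcinoma. Every papilloma and every carcinoma was above every normal array, and carcinoma 5, the array with the largest shift of the chromosome, had the lowest carcinoma value. The papilloma rise passed the test (adjusted p = 0.000135). The normal values lay at the array medians, so the size of the difference is not given.

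Pola2, a subunit of the polymerase that primes DNA synthesis, rose by 1.25 in papilloma (SE 0.17, adjusted p = 2.59e-05). Hells, a chromatin remodeller of proliferating cells, rose by 1.01 (adjusted p = 1.73e-05). Cep55 and Cdca5, which act in abscission and in sister chromatid cohesion, rose by 0.98 and 0.92 (adjusted p = 0.000942 and 0.011). In carcinoma these 4 stood 1.71, 1.63, 2.07 and 2.05 above normal. Carcinoma 5 was the lowest carcinoma for all of them as well. Fen1, the flap endonuclease of lagging-strand synthesis, was 0.83 higher in papilloma and 0.89 in carcinoma.

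Genes of ribosome biogenesis and translation rose in papilloma for 12 of 13 members (92.3%) and fell for 0, with a median of 0.99, and the carcinoma median was 0.56. Polr2g, the remaining entry of the list, encodes a subunit of RNA polymerase II and differed by 0.22. Rcl1 encodes a processing factor of small-subunit ribosomal RNA. It read 8.30, 8.05, 8.08, 7.92 and 7.83 in normal tissue, 9.51, 9.92, 10.04, 9.98 and 10.11 in papilloma and 9.71, 9.76, 10.22, 9.83 and 9.38 in carcinoma. No tumour array reached down to the normal range. Its papilloma rise was 1.87 (SE 0.15, adjusted p = 6.04e-08).

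Noc3l and Nolc1, nucleolar factors of ribosome assembly, rose by 1.25 and 1.23 in papilloma (adjusted p = 2.63e-08 and 5.34e-08) and stood 1.14 and 1.005 above normal in carcinoma. Per array, Nolc1 was 0.97, 1.11, 1.20, 1.14 and 0.64 above normal in carcinomas 1 to 5 after centring. The list median was 0.57, 0.64, 0.91, 0.81 and 0.25 in carcinomas 1 to 5 and 0.87 to 1.07 in papillomas. Ribosome genes of chromosome 19 were thus above normal in all 5 carcinomas, least in carcinoma 5.

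Of 20 mitochondrial members, 7 rose (35%) and 1 fell (5%) in papilloma (median 0.26), and the carcinoma median was -0.12. Twnk, the helicase of mitochondrial DNA, read 7.52, 7.59, 7.61, 7.51 and 7.71 in normal tissue, 9.001, 9.25, 9.27, 9.09 and 9.38 in papilloma and 8.77, 8.86, 9.31, 8.87 and 8.60 in carcinoma. The groups did not overlap with normal tissue, and the papilloma rise was 1.61 (SE 0.11, adjusted p = 1.9e-08). Sfxn2, a sideroflexin of the inner mitochondrial membrane, rose by 1.33 (adjusted p = 5.63e-06). The respiratory chain subunits Ndufs8, Ndufb8 and Cox8a differed by -0.11, -0.09 and -0.11 in papilloma and by -0.46, -0.63 and -0.32 in carcinoma. By array the list median was 0.17 to 0.29 in papillomas, -0.11, -0.21 and -0.39 in carcinomas 1, 2 and 5, and 0.19 and 0.13 in carcinomas 3 and 4, so the carcinomas differed among themselves.

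Several enzymes, which form no list and are named for the size of their rise, follow. Aldh18a1 makes the precursor of proline and ornithine from glutamate. It read 8.87, 8.90, 8.89, 8.83 and 8.87 in normal tissue, 10.93, 10.66, 10.93, 10.86 and 10.79 in papilloma and 10.77, 11.16, 10.96, 11.11 and 11.14 in carcinoma. The tumour arrays lay far above a narrow normal range, the papilloma rise was 1.96 (SE 0.08, adjusted p = 5.18e-11), or 3.90-fold, and carcinoma 5 was not low. Psat1, an enzyme of serine synthesis, rose by 2.06 (SE 0.13, adjusted p = 7.54e-09) and stood 1.63 above normal in carcinoma. Gsto1, an omega glutathione transferase, rose by 2.44 (adjusted p = 5.38e-09), and Gda, guanine deaminase, by 2.01 (adjusted p = 0.000576).

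Gldc, the glycine decarboxylase of the glycine cleavage system, separated the tumour types. It read 10.34, 10.76, 10.88, 10.50 and 10.47 in normal tissue, 7.35, 7.61, 6.72, 7.25 and 6.95 in papilloma and 9.58, 10.23, 9.86, 10.74 and 10.82 in carcinoma. Papillomas were far below both other groups, and carcinomas overlapped normal tissue. The papilloma difference was -3.41 (SE 0.22, adjusted p = 1.03e-08), and the carcinoma difference was -0.34.

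Of 18 transporters of the epithelium, 7 fell (38.9%) and 3 rose (16.7%) in papilloma (median -0.22), and the carcinoma median was -0.44. Slc22a8 encodes the organic anion transporter that clears drugs and metabolites from cerebrospinal fluid. It read 11.03, 11.31, 11.55, 11.78 and 11.39 in normal tissue, 7.61, 8.63, 8.36, 8.08 and 8.51 in papilloma and 8.28, 7.49, 8.43, 10.22 and 9.17 in carcinoma. All tumours were below all normal arrays, with carcinoma 4 the highest tumour. The papilloma difference was -3.18 (SE 0.37, adjusted p = 5.32e-06), or 9.04-fold lower.

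Slc16a12, a monocarboxylate transporter family member that carries creatine, fell by 2.28 (adjusted p = 0.000679), and Vldlr, a receptor for lipoproteins and reelin, fell by 1.75 (adjusted p = 1.22e-05). Slc29a2, an equilibrative nucleoside transporter, was 0.90 higher in papilloma and 0.84 in carcinoma, and Slc35g1 was 1.26 and 1.21 higher. All 12 measured epithelial markers were above the median in all normal arrays. Their mean level was 13.04 to 13.08 in normal tissue, 12.46 to 12.73 in papilloma and 12.26 to 12.74 in carcinoma, and their part in the transporter values was not tested.

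Of 10 cilium members, 5 fell (50%) and 2 rose (20%) in papilloma (median -0.52), and the carcinoma median was -0.63. The count of 5 includes Cfap43, which passed the signal limit only through the normal arrays. Cfap43 encodes a protein of the axoneme of motile cilia. It read 8.91, 9.36, 9.39, 9.83 and 9.52 in normal tissue, 5.70, 5.83, 5.91, 5.84 and 5.84 in papilloma and 5.94, 5.81, 6.24, 5.81 and 5.88 in carcinoma. All 10 tumours lay in a narrow band from 5.70 to 6.24, below every normal array and below the median of every array, so the size of the difference is not given.

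Bbs1, a subunit of the BBSome that carries cargo along cilia, fell by 1.11 in papilloma (adjusted p = 0.00156), and Catsperz, a sperm flagellum gene, by 1.43 (adjusted p = 4.41e-07). Sufu and Cep78 were the 2 that rose, by 0.65 and 0.35. Eno4, a sperm-type enolase, fell by 2.03 (adjusted p = 1.84e-05). The 10 markers of astrocytes and ependyma averaged 9.01 to 9.57 in normal tissue, 8.01 to 8.80 in papilloma and 8.25 to 8.80 in carcinoma, and their part in the cilium values was not tested.

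Of 23 growth regulators and tumour suppressors, 9 rose (39.1%, Fas included) and 5 fell (21.7%) in papilloma (median 0.18), and the carcinoma median was -0.02. The count of 9 includes Fas although it passed the signal limit only through the papillomas. Prkg1, a cGMP-dependent protein kinase of smooth muscle and neurons, read 7.60, 7.16, 7.79, 8.04 and 7.33 in normal tissue, 11.02, 10.75, 10.55, 10.63 and 10.78 in papilloma and 8.30, 6.26, 8.99, 8.97 and 9.10 in carcinoma. Papillomas were above all other arrays, and carcinoma 2 was below all normal arrays. The papilloma rise was 3.16 (SE 0.41, adjusted p = 1.55e-05), or 8.96-fold.

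Fas encodes a death receptor and is a known p53 target. It read 6.79, 6.76, 6.76, 6.57 and 6.84 in normal tissue, 7.56, 7.66, 7.74, 7.23 and 7.86 in papilloma and 6.47, 6.14, 6.67, 6.79 and 6.54 in carcinoma. Papillomas were above all normal arrays, and carcinomas overlapped normal tissue. Any part of p53 in these values was not tested. Normal and carcinoma values lay at or below the array medians, so the size of the difference is not given.

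Mxi1, a Max partner that opposes Myc, read 10.81, 10.72, 10.72, 10.65 and 10.58 in normal tissue, 11.56, 11.40, 11.38, 11.26 and 11.35 in papilloma and 11.10, 11.24, 11.44, 11.58 and 10.80 in carcinoma. Papillomas were above all normal arrays, and carcinoma 5 alone among tumours fell within the normal range. The papilloma rise was 0.69 (SE 0.12, adjusted p = 0.000217). Sufu, an inhibitor of Hedgehog signalling, read 10.32, 10.21, 10.34, 10.53 and 9.89 in carcinoma against 9.70 ± 0.11 in normal tissue, and rose by 0.65 in papilloma (SE 0.10, adjusted p = 0.000125). Men1, which encodes menin, read 10.13, 10.02, 10.49, 10.54 and 9.68 in carcinoma against 10.06 ± 0.09 in normal tissue, lowest in carcinoma 5. Its papilloma difference was 0.29 (adjusted p = 0.137, and 0.0256 with only normal tissue and papilloma in the fit).

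Smarca2 encodes a catalytic subunit of the SWI/SNF chromatin remodelling complex. It read 11.51, 11.57, 11.68, 11.71 and 11.70 in normal tissue, 11.02, 11.52, 11.21, 11.27 and 11.40 in papilloma and 10.82, 10.36, 11.03, 11.11 and 10.23 in carcinoma. All carcinomas were below all normal arrays, carcinomas 2 and 5 by the most, and 1 papilloma overlapped normal tissue. The papilloma difference was -0.35 (SE 0.15, adjusted p = 0.0922, and 0.00902 with only the 2 groups in the fit) and the carcinoma difference -0.93. Btrc, the substrate receptor of a ubiquitin ligase for beta-catenin, differed by -0.33 in papilloma, where all arrays were below all normal ones (adjusted p = 0.0829, and 0.000842 with only the 2 groups in the fit), and by -0.81 in carcinoma.

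**Figure D4:**
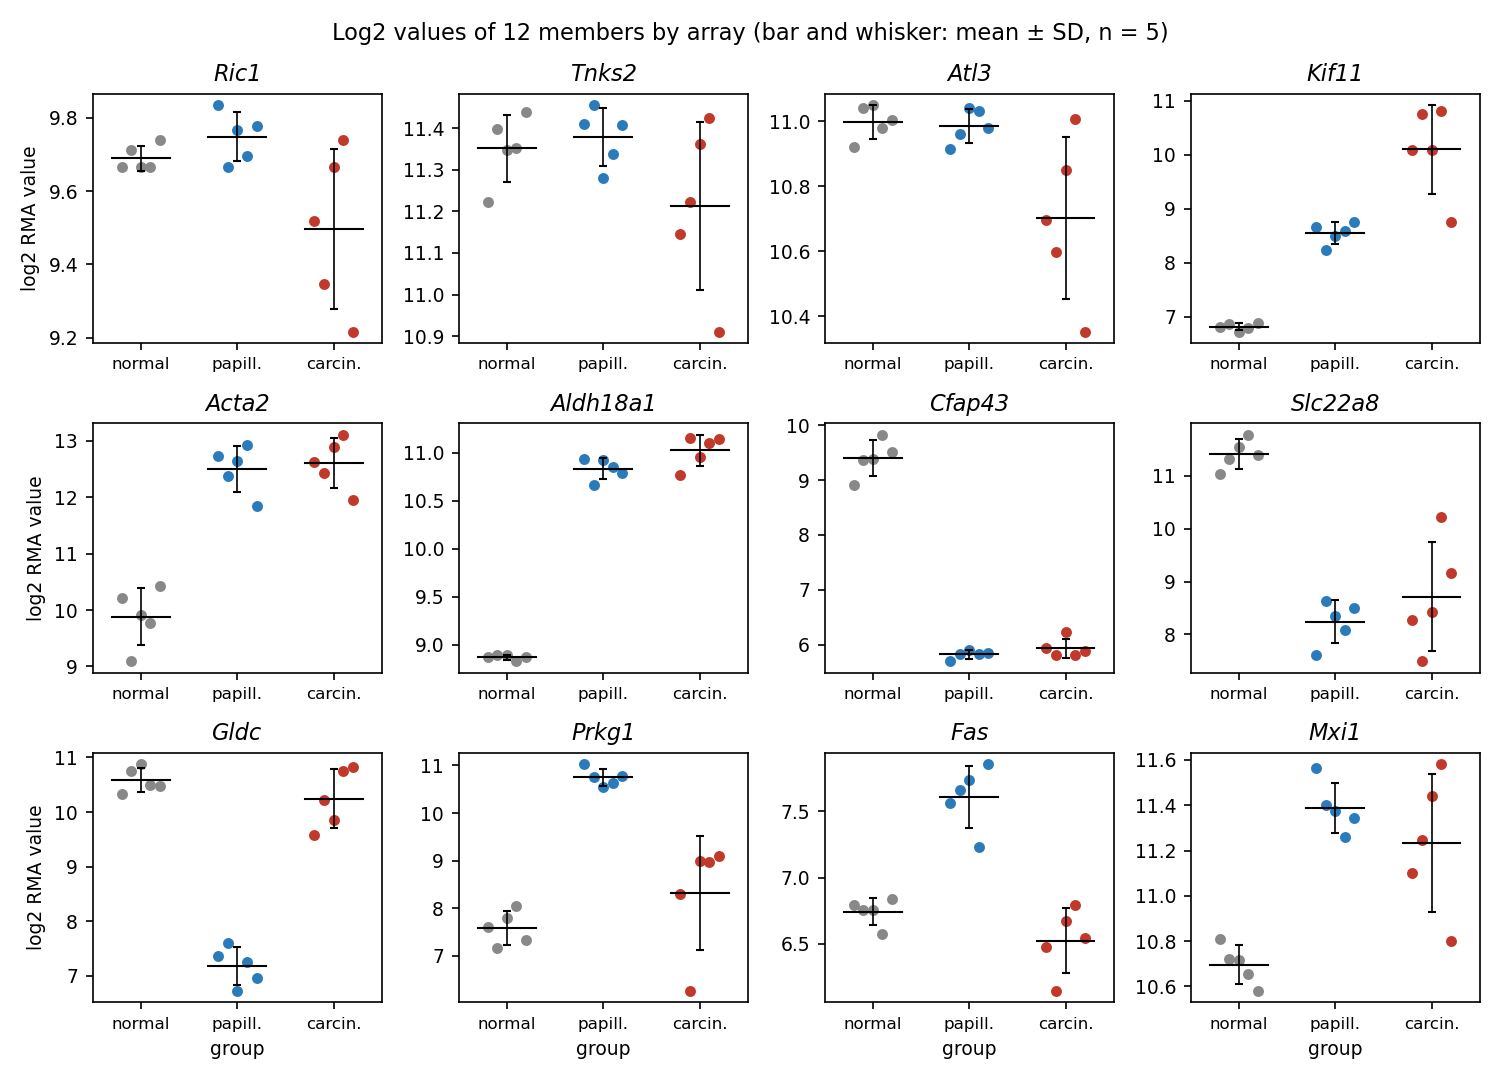
Log2 RMA values (vertical axes, each with its own range) of 12 members in normal, papilloma and carcinoma arrays, as points with the group mean and SD (n = 5), points ordered by array number. Ric1, Tnks2 and Atl3 are lowest in carcinoma 5, Kif11 is highest in carcinomas, and Gldc and Prkg1 set papillomas apart from the other groups.

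Of 17 lipid genes, 5 rose (29.4%) and 4 fell (23.5%) in papilloma (median -0.17), and the carcinoma median was -0.37. Asah2, neutral ceramidase, fell by 1.90 in papilloma (SE 0.16, adjusted p = 1.33e-07), and Plce1, phospholipase C epsilon, by 1.86 (SE 0.23, adjusted p = 8.56e-06). They stood 2.39 and 2.02 below normal in carcinoma, in both cases with carcinoma 2 the lowest array. Acsl5, which activates long-chain fatty acids, rose by 2.35 (SE 0.18, adjusted p = 4.7e-08), and Gpam, which starts glycerolipid synthesis, by 1.04 (adjusted p = 4.45e-05). The fatty acid desaturases Fads1, Fads2 and Fads3, which lie beside each other, differed by -0.28, -0.16 and -0.28 in papilloma and by -0.55, -0.19 and -0.74 in carcinoma. Aldh3b1, an aldehyde dehydrogenase of lipid aldehydes, fell by 1.15 in papilloma (adjusted p = 0.0144) and was 2.08 below normal in carcinoma.

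Of 20 stromal and vascular genes, 6 rose (30%, Fam111a included) and 4 fell (20%, the share over all members) in papilloma (median 0.10), and the carcinoma median was -0.16. The list holds Fam111a although that gene acts in DNA replication. Acta2, smooth muscle actin, read 10.21, 9.09, 9.92, 9.78 and 10.43 in normal tissue, 12.72, 12.37, 12.64, 12.92 and 11.85 in papilloma and 12.62, 12.43, 12.89, 13.11 and 11.96 in carcinoma. Tumours of both types were above all normal arrays by similar amounts, and the papilloma rise was 2.62 (SE 0.26, adjusted p = 9.27e-07), or 6.13-fold. The 9 pericyte and smooth muscle markers averaged 8.04 to 8.32 in normal tissue, 8.15 to 8.37 in papilloma and 8.68 to 8.91 in carcinoma, and the 12 endothelial markers 8.11 to 8.55, 8.51 to 8.85 and 8.72 to 9.11. Of the endothelial markers, 7 of 12 were called higher and 1 lower in papilloma, and the part of either marker list in these values was not tested.

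Pdlim1, a PDZ and LIM protein of actin fibres, was 0.77 higher in papilloma (SE 0.26, adjusted p = 0.0291) and 1.99 higher in carcinoma. The papilloma call was lost without normal array 2, 3 or 4 or papilloma 1, with adjusted p between 0.0507 and 0.0831. Rbp4, the carrier of retinol, fell by 1.54 in papilloma (adjusted p = 2.19e-06) and stood 1.72 below normal in carcinoma. Fam111a, a protease needed for DNA replication, read 5.85, 5.39, 5.67, 5.65 and 5.37 in normal tissue, 6.52, 6.50, 6.62, 6.62 and 6.77 in papilloma and 7.15, 7.82, 7.07, 7.27 and 6.86 in carcinoma, and exceeded the array median only in the carcinomas. Fibroblast and meningeal markers (12 measured) averaged 9.32 to 9.58 in normal tissue, 7.92 to 8.48 in papilloma and 8.39 to 8.85 in carcinoma. Their part in these values was not tested.

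Of 18 immune and interferon genes, 1 rose in papilloma (Fas) and 3 fell (16.7%, near the 16.3% over all genes), with a median of -0.17, and the carcinoma median was 0.0016. Fas passed the signal limit only through the papillomas, so its rise counts as no test. Tcirg1, a proton pump subunit, fell by 0.75 (adjusted p = 0.00676). Jak2, the cytokine receptor kinase, and Ifit3, an interferon-induced gene, differed by -0.32 and -0.30 with adjusted p of 0.0432 and 0.037. Both calls were lost under most left-out arrays, with adjusted p up to 0.0978 and 0.0986. Without papillomas 2 and 4 the adjusted p values were 0.132 and 0.0559.

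Ifit1, another interferon-induced gene, read 7.36, 8.03, 7.66, 7.58 and 7.61 in normal tissue, 7.32, 6.71, 7.31, 7.001 and 7.21 in papilloma and 7.43, 7.75, 7.76, 11.17 and 7.28 in carcinoma. Carcinoma 4 alone was high, and the other carcinomas overlapped normal tissue. All papillomas were below all normal arrays. The papilloma difference was -0.53 (SE 0.54, adjusted p = 0.525) in the fit that shares its spread with the carcinomas, and the adjusted p was 0.0103 with only the 2 groups in the fit. Macrophage and microglia markers (12 measured) averaged 9.17 in carcinoma 4 and 8.87 in carcinoma 2, against 8.02 to 8.20 in the other 3 carcinomas and 8.20 to 8.51 in normal tissue, and their part in the immune values was not tested. Il33, the alarmin cytokine interleukin 33, fell by 1.82 in papilloma (SE 0.12, adjusted p = 1.21e-08) and stood 2.11 below normal in carcinoma.

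Of 22 neuronal genes, 5 fell (22.7%) and 3 rose (13.6%) in papilloma, beside 20% and 25.7% over all members, with a median of -0.09, and the carcinoma median was -0.31. Gfra1, a co-receptor for the growth factor GDNF, fell in papilloma (adjusted p = 5.29e-08) and stood below normal in carcinoma. It read 6.65 to 6.884 in all carcinomas but carcinoma 5 (7.755), beside array medians of 6.79 to 6.90. The carcinoma mean was 0.21 above the papilloma mean, so both groups lay near the array median and the sizes are not given. Gfra1 has 2 probe sets, and with their mean both differences from normal were smaller (adjusted p = 7.54e-07 in papilloma). Nrxn2, a presynaptic adhesion protein, fell by 2.04 (adjusted p = 0.000263), or with the mean of its 2 probe sets by 1.05 (adjusted p = 0.00127). Grk5, a kinase of G protein-coupled receptors, fell by 1.06 (adjusted p = 2.1e-07). Snx32, a sorting nexin, fell by 0.75 (adjusted p = 0.0231), a call lost without papilloma 1 (adjusted p = 0.0516) and without papillomas 2 and 4 (adjusted p = 0.0585). The neuron markers given above were lower than normal in the carcinomas and in papillomas 1, 3 and 5, above every normal array in papilloma 2 and within the normal range in papilloma 4. Their part in these values was not tested.

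**Figure D5:**
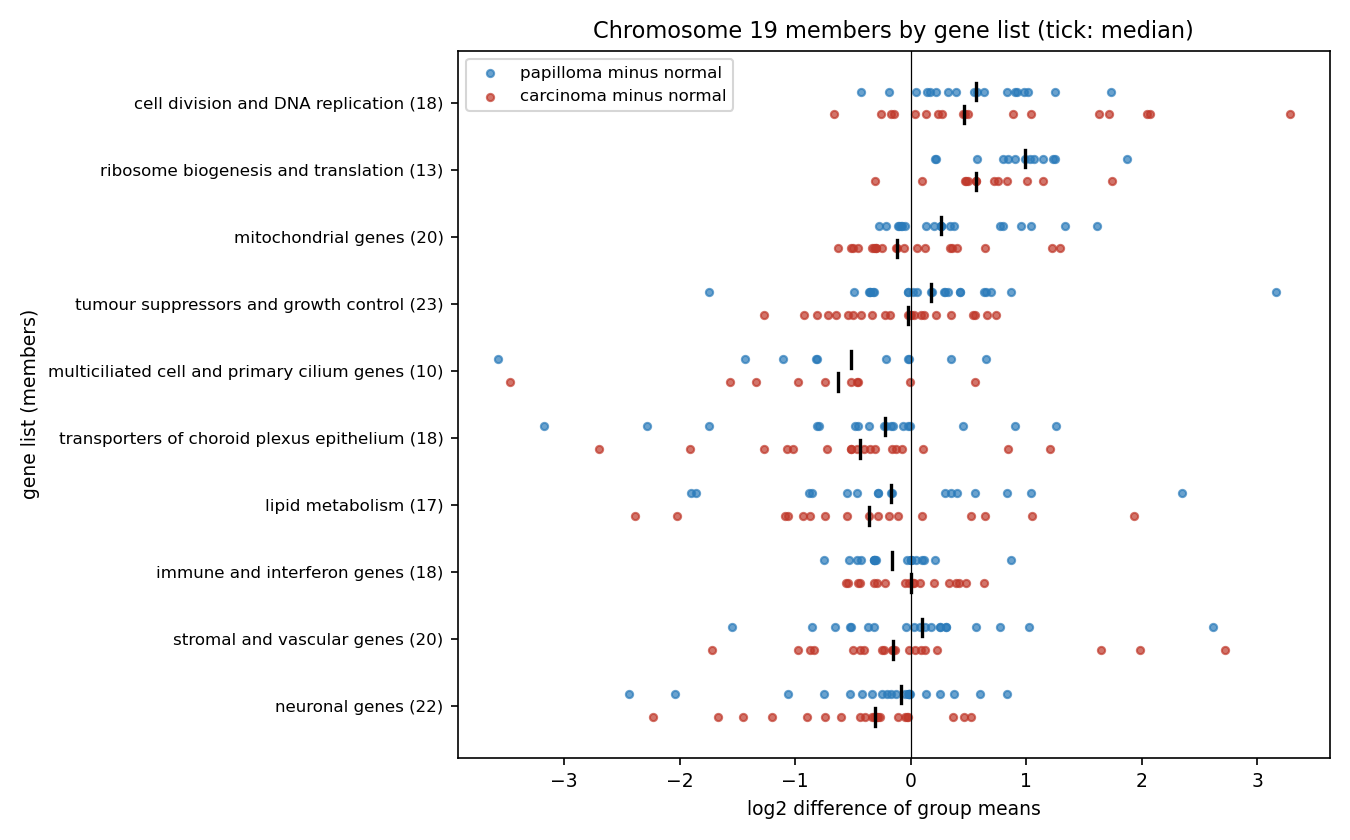
Log2 difference of group means from normal tissue (horizontal axis) for the members of 10 gene lists (vertical axis, with the number of members), papilloma in blue and carcinoma in red, with a tick at each list median. Ribosome biogenesis has medians of 0.99 and 0.56 and cilium genes of -0.52 and -0.63, so lists on the same chromosome lie on opposite sides of 0.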

How the data were processed

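RNA from 15 tissues was hybridised to Affymetrix arrays, 1 sample each. The authors deposited log2 values per probe set, made by RMA in Affymetrix Expression Console per the submitters' processing notes. Which genome build the probe annotation used is not given in those notes. RMA compresses dim values and removes global changes in RNA content. Arrays have no read depth, and 5 arrays per group limit the precision.

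Of 41345 probe sets, 190 were controls, 23521 had exactly 1 symbol, 1814 several and 16010 none. Through the Entrez identifier 23328 matched RefSeq (GRCm38.p6), which gave chromosome and gene order. The probe set with the highest mean stood for a gene (22180 genes, 21065 autosomal, 13734 past the limit). Values are in log2 units with SD or SE, and a fold is 2 to the power of a log2 difference's size. Papilloma against normal was tested with limma 3.58.1 (R 4.3.3), with the group as the only term, all 15 arrays, 12 residual and 3.35 prior degrees of freedom, two-sided, Benjamini-Hochberg over 22180 genes, threshold 0.05. The script was tested on simulated data. The p-values measure the spread between these samples. Members, the 10 lists (299 entries) and the tests were chosen with earlier results of these data known, and so support nothing independently.

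Named were, leaving out predicted genes, clone names, small RNAs and receptor families, the 8 largest rises and falls per tumour type without overlap of arrays (in papilloma also past the threshold), the 6 members closest to the chromosome median, up to 3 per list and tumour type by size of difference, and Men1, Sufu, Fas and Mxi1 (53 genes). Other genes named in the lists, and the 3 motifs beside the E-box, were chosen after the values were seen. Alternatives were other centring, dim-gene limits, probe-set averages, quantile normalization, a replicate block, a variance trend, 2 groups alone and each array left out. Added after seeing the data were members flat in papilloma, normal array 1 alone and no papillomas 2 and 4.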

Additional observations from a re-analysis of the deposited data

Results flagged for a closer look

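Each group of 5 arrays was checked, for 162 gene and group combinations over the named members and the chromosome medians, for an array that lies far from the other 4 relative to the range of the group. Chance gives such a gap in about 1 of 20 groups, and 9 were found. In carcinoma, Gfra1 read 7.755 in array 5 against 6.65 to 6.884 in the others. Prkg1 read 6.263 in carcinoma 2 against 8.302 to 9.101, and Ifit1 read 11.173 in carcinoma 4 against 7.276 to 7.761. In papilloma, Eno4 read 8.901 in array 1 against 9.261 to 9.368, and Pdlim1 read 9.31 in the same array against 8.458 to 8.602. Grk5 read 7.545 in papilloma 2 against 7.157 to 7.254. Among normal arrays, Cuedc2 read 11.726 in array 1 against 11.454 to 11.518, Fgfbp3 read 7.699 in array 2 against 7.881 to 7.948, and Sfxn2 read 9.269 in array 4 against 9.522 to 9.573. No explanation of these values was tested.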

How the results depend on the processing

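Under the alternatives run, the mean carcinoma shift lay between -0.22 (without carcinoma 4) and -0.07 (no limit on dim genes). With each array left out it ranged from -0.22 to -0.10. The carcinoma values chose the chromosome, so a mean that stayed below 0 is a description and adds no evidence. Leave-out runs aside, carcinoma 4 was above 0 in all 12 settings (0.0021 to 0.0737). Carcinoma 3 lay between -0.0478 and 0.0192 in them. The papilloma shift was 0.0087 as a mean over members in place of the median. The 217 papilloma calls became 195 to 209 with one array left out, 285 with only the 2 groups in the fit, and 187 without papillomas 2 and 4, of which 177 were shared.

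Same-numbered arrays correlated between -0.096 and 0.136 in their deviations from the group means. Differently numbered arrays were not compared, so these values cannot decide whether the replicate numbers pair the samples. With the replicate block, 208 papilloma calls remained, 205 of them shared with the 217.

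The count of carcinoma against papilloma differences was the least stable. With only these 2 groups in the fit, 36 members passed in place of 115 (9 higher, 27 lower), and without papillomas 2 and 4 there were 53 (8 higher, 45 lower). With one array left out the count ran from 68 to 177, and the lower calls from 56 to 164. The cause was not tested. Among the named genes, papilloma tests kept their side of the threshold in 868 of the gene and setting combinations, lost it in 28 and gained it in 5, with no change of sign. The gains were Smarca2, Btrc, Ifit1 and Men1 with only the 2 groups in the fit and Btrc with quantile normalization. Values of dim members are limited by signal near the array median.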
